A study of Saccharomyces cerevisiae with 6 samples.

Results

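Cytosolic translation factors are the proteins that start, carry forward and end protein synthesis on the ribosome. The set described here is a list of 32 genes of the budding yeast Saccharomyces cerevisiae, fixed by symbol: subunits of the initiation factors, the elongation factors and the release factors. For each gene, the probe set that the platform annotation assigns to its symbol was used (the one with the highest mean over the 6 arrays, a choice that mattered for 0 of these genes). Of the 32 genes, 29 had a probe set, out of 5449 yeast genes tested in all. TIF1, TEF1 and EFT1 had none under their own symbols. Each is known to encode the same protein as a second gene, and the annotation assigned a probe set to that second gene (TIF2, TEF2 and EFT2). TIF2 is one of the 29, while TEF2 and EFT2 are given as paralogues. These 3 probe sets carry a suffix that marks them as able to bind more than 1 transcript, so the copies of a pair cannot be told apart on these arrays.

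The samples were 3 RNA samples labelled gpm1, described as a mutant lacking phosphoglycerate mutase, and 3 labelled wild type (WT). Per the labels, both groups were grown in batch on ethanol and glycerol. The assay was a one-colour Affymetrix array, 1 for each sample. The labels give no strain background, no marker and no age of the cultures. Nor do they say whether replicates were grown separately, so the p-values cover the spread between these arrays alone, and that spread may be technical. The 3 arrays per group limit the precision of every comparison. In such bulk RNA, fewer cells with a transcript and less of it per cell cannot be told apart.

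Translation begins when eIF4E of the cap-binding complex holds the mRNA cap, eIF4G links it to the poly(A)-binding protein, and eIF4A unwinds the leader. eIF2 brings the initiator tRNA to the small subunit, where eIF1, eIF1A, eIF3 and eIF5 take part in choosing the start codon, and eIF2B afterwards recharges eIF2 with GTP. Elongation factors then deliver aminoacyl-tRNAs and move the ribosome along, and eRF1 and eRF3 release the finished chain. In yeast, genes for translation factors and for ribosome assembly are known to be expressed more in fast than in slow growth.

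The deleted gene ran against the labels. GPM1, for phosphoglycerate mutase, had log2 values of 12.51, 12.48 and 11.82 on the gpm1-labelled arrays, against 5.16, 5.12 and 5.17 on the arrays labelled WT. The WT values lay under 6.09, the 95th percentile of 1746 probe sets whose gene IDs are not in the S. cerevisiae table and which served as background. GPM1 was therefore at least 72.4-fold higher on the gpm1-labelled arrays (limma adjusted p = 8.15e-05; exact two-sided permutation p = 0.1, the smallest that 3 against 3 arrays allow). Every direction below is that of the labels, not of the genotype. The arrays labelled gpm1 also differed more among themselves, with a median SD over all genes of 0.25 against 0.05 among the arrays labelled WT. Replicate 3 lay nearer to the arrays labelled WT than both other gpm1 replicates for 65.6% of genes. The poly-A control transcripts, added to RNA before labelling, had mean log2 values of 7.10, 6.61 and 6.12 on labelled gpm1 replicates 1, 2 and 3, against 5.83, 6.15 and 6.14 on the arrays labelled WT.

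All 29 translation factor genes had a higher mean on the gpm1-labelled arrays, and none passed the test over all genes with all 6 arrays. Their log2 differences, labelled gpm1 minus labelled WT, ran from 0.04 for HYP2 to 0.75 for FUN12 with a median of 0.44, against a median of 0.02 over all 5449 genes. The groups did not overlap for 27 of the 29, all with the gpm1 values above, which is 93.1% against a background of 19.2% of all genes with the gpm1 values above and 15.4% with them below. With limma, 0 of 29 passed a Benjamini-Hochberg adjusted p of 0.05 in either direction, where the background was 0.0184% called higher and 0.789% called lower. At an unadjusted p under 0.05, 20 of 29 were higher and 0 lower, which is 69.0% against a background of 12.0% called higher and 10.5% called lower. The adjusted p-values of the 29 ran from 0.139 to 0.811. Members were chosen with earlier results of these data known. Their shares, here and below, are thus a description beside those of all genes and not a test. The means of the 29 genes over the 6 arrays ran from 7.68 to 12.25, all above the background percentile of 6.09.

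**Figure D1:**
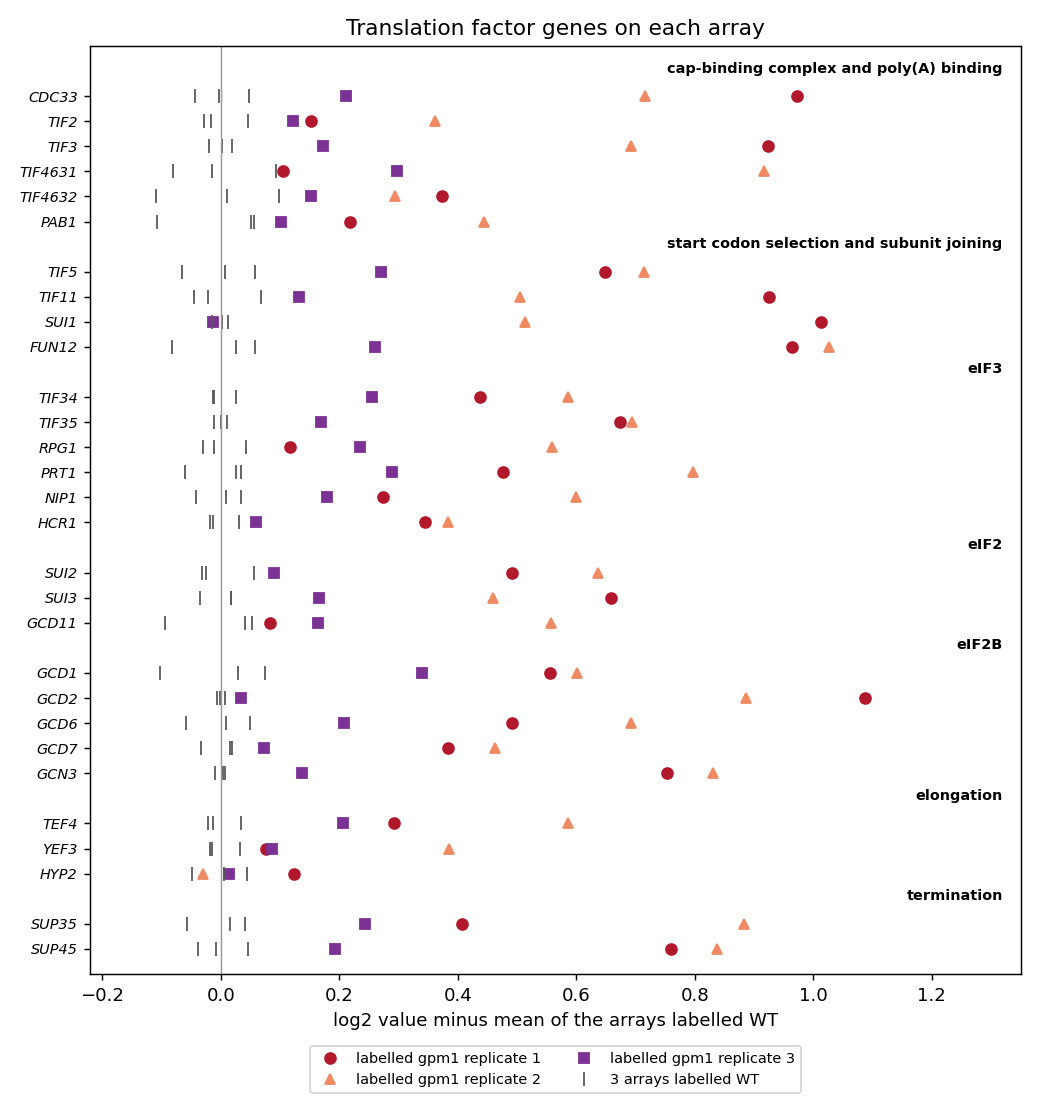
Each row is a translation factor gene, grouped by role, and the horizontal axis is the log2 value of an array minus the mean of the arrays labelled WT. Coloured symbols are the 3 arrays labelled gpm1 and ticks the 3 labelled WT. Replicate 3 (squares) lies between the ticks and both other gpm1 arrays for most genes, while HYP2 and SUI1 overlap the ticks.

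The count of calls turned on 1 array. Without labelled gpm1 replicate 3, 22 of the 29 genes were higher by limma adjusted p and 0 lower, which is 75.9% against a background of 21.6% called higher and 19.5% called lower in that fit, and the median difference of the 29 was 0.56. Replicate 3 lay nearest the WT mean for 25 of the 29 genes (86.2%, against 65.6% of all genes), so leaving it out widens most of the differences. Leaving out any other single array called 0 of the 29. Calls without replicate 3 named below come from that 1 fit and are not a separate test. With all 6 arrays and a weight estimated for each, 17 of the 29 were higher and 0 lower, where 9.34% of all genes were called higher and 9.18% lower. Those weights were 0.142, 0.416 and 0.133 for labelled gpm1 replicates 1, 2 and 3, so replicate 2 counted most among the gpm1-labelled arrays. The arrays labelled WT had weights of 5.20, 6.83 and 3.58, so each counted far more than any gpm1-labelled array. The estimate of the weights stopped before it converged. Taken array by array, the median over the 29 genes lay 0.48, 0.60 and 0.17 above the mean of the arrays labelled WT on replicates 1, 2 and 3, while the median over all genes lay at 0.05, -0.01 and 0.02. On replicate 3, 27 of the 29 genes (93.1%) lay above the highest array labelled WT, against 42.5% of all genes. The share on that array was 96.3% for 54 ribosome biogenesis genes and 96.9% for 128 cytosolic ribosomal protein genes. The poly-A controls were higher on replicates 1 and 2, and on replicate 3 they stood at 6.12, inside the range of the arrays labelled WT. Their part in the result was not tested.

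Among the genes of the cap-binding complex and poly(A) binding, CDC33 and TIF3 had the largest differences. All 6 measured genes had groups that did not overlap, with the gpm1 values above, against 19.2% of all genes. CDC33, which encodes the cap-binding protein eIF4E, was 11.75, 11.49 and 10.98 on the gpm1-labelled arrays, against 10.77, 10.82 and 10.73 on those labelled WT. Its lowest gpm1 array lay 0.16 above its highest WT array, for a log2 difference of 0.63 (SE 0.20, a measured fold of 1.55, limma adjusted p = 0.196). TIF3, for eIF4B, a partner of the helicase eIF4A, was 10.43, 10.20 and 9.68 on the gpm1-labelled arrays, against 9.49, 9.53 and 9.51 on those labelled WT, a difference of 0.60 (SE 0.19, limma adjusted p = 0.196). Both genes had their highest value on replicate 1 and their lowest gpm1 value on replicate 3.

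Of the 2 genes for the scaffold eIF4G, TIF4632 shared that order and TIF4631 did not. TIF4631 was 8.67, 9.48 and 8.86 on the gpm1-labelled arrays, against 8.48, 8.55 and 8.65 on those labelled WT. Replicate 2 stood well above the rest, and replicate 1 lay only 0.01 above the highest WT array (difference 0.44, SE 0.21, limma adjusted p = 0.259; the difference was 0.20 without replicate 2). TIF4632 was 7.91, 7.83 and 7.69 on the gpm1-labelled arrays, against 7.43, 7.55 and 7.64 on those labelled WT, a difference of 0.27 (SE 0.10, limma adjusted p = 0.211). TIF2, for the RNA helicase eIF4A, differed by 0.21 and PAB1, for the poly(A)-binding protein, by 0.26 (limma adjusted p = 0.248 and 0.247). Of these 6 genes, 3 were called higher without replicate 3, CDC33 at 0.84, TIF3 at 0.81 and TIF4632 at 0.33. In that fit 21.6% of all genes were called higher.

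The factors of start codon selection and subunit joining had the highest median of the classes with at least 3 measured genes, 0.53. All 4 were called higher without labelled gpm1 replicate 3, against 21.6% of all genes. FUN12, for the GTPase eIF5B that joins the ribosomal subunits, had the largest difference of all 29 genes. It was 11.17, 11.24 and 10.47 on the gpm1-labelled arrays, against 10.13, 10.27 and 10.24 on those labelled WT. Replicates 1 and 2 were close to each other, replicate 3 was lower, and all 3 lay above every WT array (difference 0.75, SE 0.21, a measured fold of 1.68, limma adjusted p = 0.194). TIF5, for eIF5, which stimulates GTP hydrolysis by eIF2, was 9.94, 10.00 and 9.56 on the gpm1-labelled arrays, against 9.22, 9.30 and 9.35 on those labelled WT. Its groups were apart by 0.21, and its difference was 0.54 (SE 0.14, limma adjusted p = 0.174).

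SUI1 and TIF11 encode the small factors eIF1 and eIF1A. SUI1 was 11.65, 11.15 and 10.63 on the gpm1-labelled arrays, against 10.65, 10.63 and 10.64 on those labelled WT. Replicate 3 thus lay inside the WT range, while replicate 1 was 1.01 above the WT mean and replicate 2 was 0.51 above it. The SUI1 difference of 0.50 had an SE of 0.25 and a limma adjusted p of 0.264. TIF11 was 11.28, 10.86 and 10.49 on the gpm1-labelled arrays, against 10.33, 10.42 and 10.31 on those labelled WT. It had the same order of arrays as SUI1, with groups that did not overlap (difference 0.52, SE 0.20, limma adjusted p = 0.212).

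**Figure D2:**
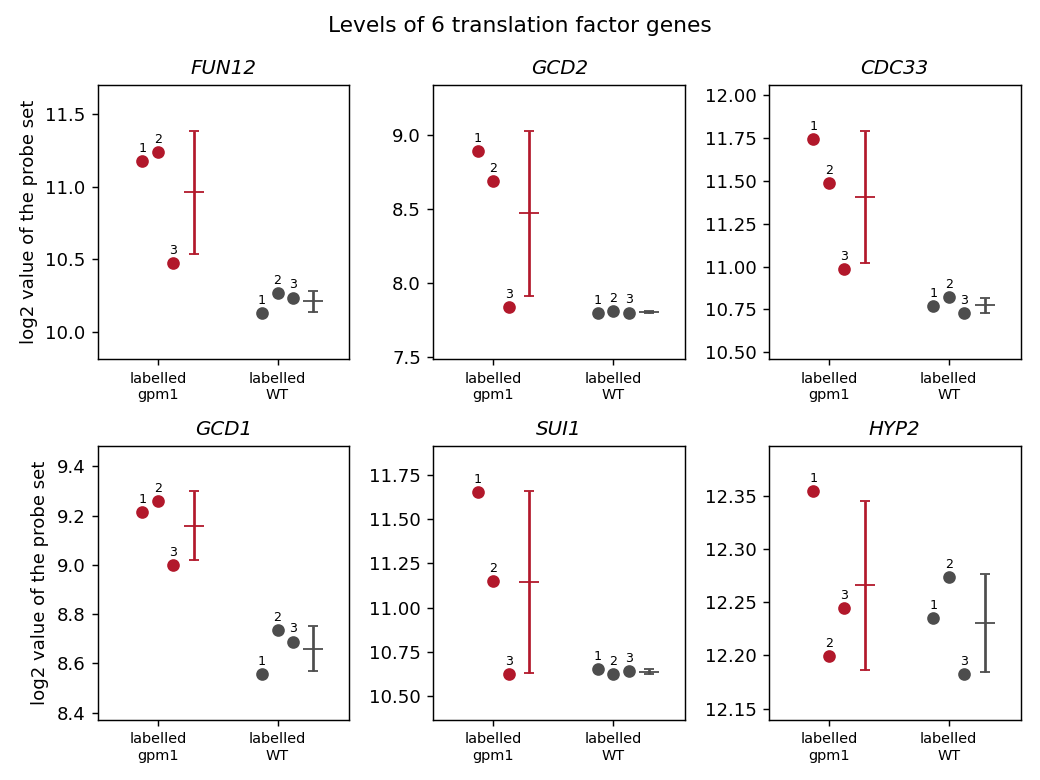
Log2 values of the probe sets of 6 translation factor genes, each panel with its own axis, the gpm1-labelled arrays to the left and those labelled WT to the right. Numbers are replicates, and bars are the mean and SD of 3 arrays. FUN12, GCD2, CDC33 and GCD1 have groups that do not overlap, whereas SUI1 overlaps through replicate 3 and HYP2 through replicates 2 and 3.

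All 6 genes of eIF3, the large factor that organises the small subunit for initiation, had groups that did not overlap. The gpm1 values lay above, as they did without overlap for 19.2% of all genes. All 6 were higher on labelled gpm1 replicate 2 than on replicate 1, against 2263 of all 5449 genes. Their differences ran from 0.26 to 0.52 with a median of 0.39. PRT1, for eIF3b, was 9.84, 10.16 and 9.65 on the gpm1-labelled arrays, against 9.30, 9.40 and 9.39 on those labelled WT. The gap between its groups was 0.25, and its difference was 0.52 (SE 0.14, limma adjusted p = 0.187). TIF35, for eIF3g, was 10.86, 10.88 and 10.35 on the gpm1-labelled arrays, against 10.19, 10.17 and 10.18 on those labelled WT. Replicates 1 and 2 differed by 0.02 on this gene, and its difference was 0.51 (SE 0.16, limma adjusted p = 0.196).

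The other 4 eIF3 genes had smaller differences. TIF34, for eIF3i, was 10.66, 10.81 and 10.48 on the gpm1-labelled arrays, against 10.21, 10.21 and 10.25 on those labelled WT, a difference of 0.43 (SE 0.11, limma adjusted p = 0.174). NIP1, for eIF3c, differed by 0.35, RPG1, for eIF3a, by 0.30, and HCR1, for the loosely bound eIF3j, by 0.26. Without replicate 3, 5 of the 6 were called higher, against 21.6% of all genes. RPG1 was not (adjusted p = 0.111), and its value of 9.79 on replicate 1 was under its 9.91 on replicate 3.

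The 5 genes of eIF2B, the exchange factor for eIF2, were all higher at an unadjusted limma p under 0.05, against 12.0% of all genes. All 5 were called higher without labelled gpm1 replicate 3, against 21.6% of all genes. GCD1, for the gamma subunit, had the smallest p of the 29 genes. It was 9.22, 9.26 and 9.00 on the gpm1-labelled arrays, against 8.56, 8.73 and 8.69 on those labelled WT. Its 3 gpm1 arrays were close together and 0.27 or more above every WT array (difference 0.50, SE 0.11, a measured fold of 1.41, limma adjusted p = 0.139). GCD2, for the delta subunit, was 8.89, 8.69 and 7.84 on the gpm1-labelled arrays, against 7.80, 7.81 and 7.80 on those labelled WT. Here replicate 3 lay 0.03 above the highest WT array while replicate 1 was 1.09 above the WT mean, so its difference of 0.67 had an SE of 0.27 (limma adjusted p = 0.219).

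GCN3, for the regulatory alpha subunit, resembled GCD2. It was 9.09, 9.16 and 8.47 on the gpm1-labelled arrays, against 8.34, 8.34 and 8.32 on those labelled WT, a difference of 0.57 (SE 0.19, limma adjusted p = 0.199). GCD6, for the catalytic epsilon subunit, differed by 0.46 (SE 0.14, limma adjusted p = 0.196), and GCD7, for the beta subunit, by 0.31 (SE 0.12, limma adjusted p = 0.219). Of the 3 genes of eIF2 itself, SUI3 for the beta subunit differed by 0.43, SUI2 for the alpha subunit by 0.41 and GCD11 for the gamma subunit by 0.27. SUI2, whose product is the target of the kinase Gcn2, was 10.23, 10.37 and 9.82 on the gpm1-labelled arrays, against 9.71, 9.70 and 9.79 on those labelled WT. Its replicate 3 lay 0.03 above the highest WT array (limma adjusted p = 0.210). Without replicate 3, SUI2 and SUI3 were called higher and GCD11 was not (adjusted p = 0.153), where 21.6% of all genes were called higher.

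The elongation factors had the lowest median difference of the classes, 0.18 over 3 measured genes, which was 0.08 without labelled gpm1 replicate 2. TEF4, for the gamma subunit of eEF1B, which recycles eEF1A, was 11.18, 11.47 and 11.09 on the gpm1-labelled arrays, against 10.87, 10.92 and 10.86 on those labelled WT. Its groups were apart by 0.17 (difference 0.36, SE 0.12, limma adjusted p = 0.197). TEF4 was the elongation gene called higher without replicate 3, where 21.6% of all genes were called higher. YEF3, for the fungal ATPase eEF3, was 11.81, 12.12 and 11.82 on the gpm1-labelled arrays, against 11.72, 11.77 and 11.72 on those labelled WT. Replicates 1 and 3 lay just over the WT arrays and replicate 2 farther off (difference 0.18, SE 0.11, limma adjusted p = 0.339). HYP2, for the hypusine-bearing factor eIF5A, was 12.35, 12.20 and 12.24 on the gpm1-labelled arrays, against 12.24, 12.27 and 12.18 on those labelled WT. Replicates 2 and 3 lay within the WT range and replicate 1 lay above it, with a difference of 0.04 (SE 0.09, limma adjusted p = 0.811) that turned to -0.01 without labelled gpm1 replicate 1.

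The probe sets assigned to the second genes for eEF1A and eEF2 also had small differences. TEF2, for eEF1A, was 12.88, 13.01 and 13.03 on the gpm1-labelled arrays, against 13.02, 13.02 and 12.96 on those labelled WT (difference -0.03, limma adjusted p = 0.849). EFT2, for eEF2, the translocase, was 11.71, 12.04 and 11.86 on the gpm1-labelled arrays, against 11.84, 11.85 and 11.86 on those labelled WT (difference 0.02, limma adjusted p = 0.897). These values lie high on the scale, with 13.12 the highest value of any probe set on the 6 arrays, and no measure of saturation was available. CAM1, the paralogue of TEF4, differed by -0.04, and ANB1, the paralogue of HYP2 known for its expression under low oxygen, by 0.12 (limma adjusted p = 0.839 and 0.481).

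HEF3, the paralogue of YEF3, was the 1 gene among 11 paralogues and partner subunits that passed the test, and it was lower. It was 6.61, 6.19 and 6.48 on the gpm1-labelled arrays, against 8.54, 8.03 and 8.65 on those labelled WT. The groups were far apart, replicate 3 lay between the other gpm1 arrays, which stood just over the background percentile of 6.09, and the level was 3.96-fold lower (difference -1.98, SE 0.20, limma adjusted p = 0.0143, with 0.789% of all genes called lower). The call was lost without labelled WT replicate 1 (adjusted p = 0.125 at -1.92), without labelled WT replicate 3 (adjusted p = 0.0962 at -1.86) and without labelled gpm1 replicate 2 (adjusted p = 0.0903 at -1.87). Whether its probe set also binds YEF3 transcripts was not tested.

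**Figure D3:**
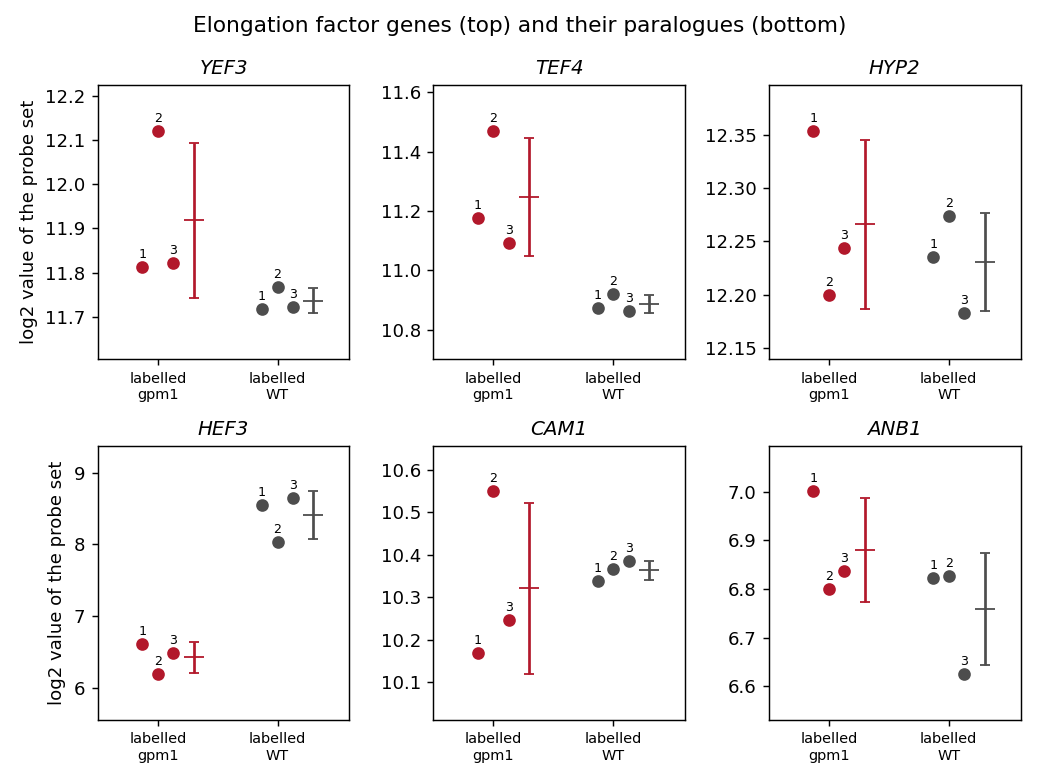
Log2 values of the probe sets of YEF3, TEF4 and HYP2 (top) and of their paralogues HEF3, CAM1 and ANB1 (bottom), each panel with its own axis, arrays labelled gpm1 to the left and labelled WT to the right. Numbers are replicates, and bars are the mean and SD of 3 arrays. HEF3 lies between 6.19 and 6.61 on the gpm1-labelled arrays and between 8.03 and 8.65 on those labelled WT.

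Both release factor genes had groups that did not overlap, with the gpm1 values above, against 19.2% of all genes. SUP45, for eRF1, which reads the stop codons, was 10.70, 10.78 and 10.13 on the gpm1-labelled arrays, against 9.90, 9.93 and 9.99 on those labelled WT (difference 0.60, SE 0.18, limma adjusted p = 0.196). SUP35, for the GTPase eRF3, was 9.90, 10.37 and 9.74 on the gpm1-labelled arrays, against 9.43, 9.51 and 9.53 on those labelled WT (difference 0.51, SE 0.17, limma adjusted p = 0.200). SUP45 had replicates 1 and 2 close together, while SUP35 had replicate 2 well above replicate 1. Both were called higher without replicate 3, against 21.6% of all genes.

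The order of labelled gpm1 replicates 1 and 2 varied with gene length. Over the 29 genes, the log2 difference of replicate 1 minus replicate 2 had a Spearman rho of -0.63 with gene length (Pearson r -0.70 with log2 length), a description across genes of the same 2 arrays, which are not independent points. Over all 5449 genes rho was -0.22, over 54 ribosome biogenesis genes -0.60 and over 128 cytosolic ribosomal protein genes -0.13. Of the 9 translation factor genes up to 1000 bases, 5 were higher on replicate 1, and the median of replicate 1 minus replicate 2 was 0.15. Of all 2087 genes of that length, 1413 were higher on replicate 1, with a median of 0.14, so the short factors did not stand out. Of the 9 factor genes over 2000 bases, 8 were higher on replicate 2, with a median of -0.32, against 668 of all 1228 genes of that length and a median of -0.04. At the ends stood SUI1 of 327 bases at 0.50 and TIF4631 of 2859 bases at -0.81. TIF4632, at 2745 bases, was the 1 gene of the 9 factor genes over 2000 bases that was higher on replicate 1, by 0.08. Of the 7 genes not called without replicate 3 (TIF2, TIF4631, PAB1, RPG1, GCD11, YEF3 and HYP2), all but HYP2 were higher on replicate 2. So were 21 of the 29 factor genes as a whole, and 2263 of all 5449 genes. The part of length, and of RNA quality, in these differences was not tested. The 3′ minus 5′ difference of the ACT1 control probe sets, which widens with RNA breakage, was 0.65, 0.47 and 0.46 on the gpm1-labelled arrays and 0.58, 0.49 and 0.46 on those labelled WT. For SPT15 it was 1.26, 1.22 and 1.26 on the gpm1-labelled arrays, all under the 1.45, 1.46 and 1.48 of those labelled WT. For WBP1 it was 0.93, 0.88 and 1.21 on the gpm1-labelled arrays and 1.27, 1.22 and 1.12 on those labelled WT, with groups that overlap.

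**Figure D4:**
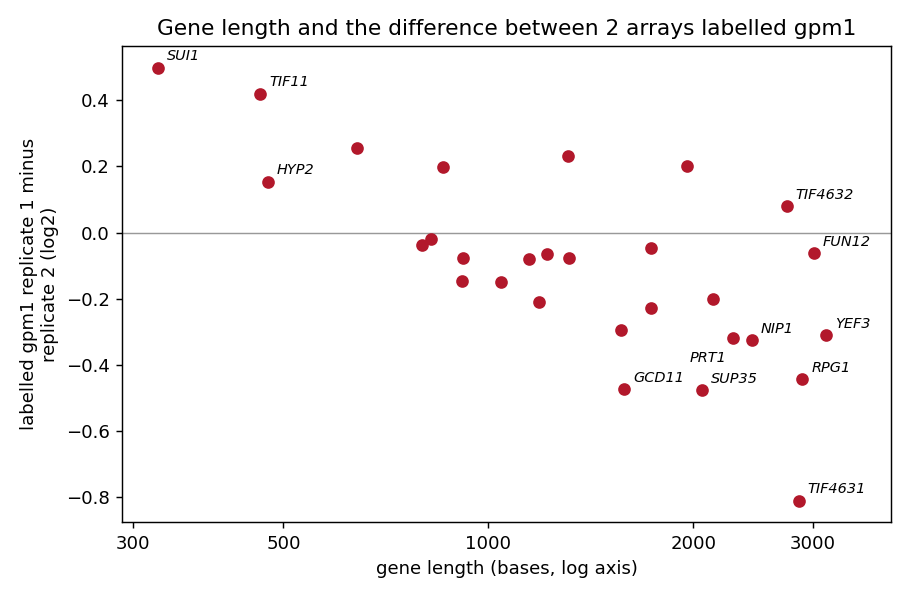
Each point is 1 of the 29 translation factor genes. The horizontal axis is gene length in bases (log axis, S. cerevisiae assembly R64) and the vertical axis the log2 value on labelled gpm1 replicate 1 minus that on replicate 2. The short genes SUI1 (0.50) and TIF11 (0.42) lie above 0, and the long genes TIF4631 (-0.81) and RPG1 (-0.44) below it. Of the 9 genes up to 1000 bases, 4 lie below 0, and the long gene TIF4632 lies above it (0.08).

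Regulators of translation and the enzymes that modify translation factors were read beside the factors. Of 20 measured regulators, 0 passed the test in either direction with limma on all 6 arrays, 8 were higher and 1 lower at an unadjusted p under 0.05, and 13 were called higher and 1 lower without labelled gpm1 replicate 3. Of all genes, 12.0% were higher and 10.5% lower at that unadjusted p, and 21.6% and 19.5% were called without replicate 3. The median difference of the regulators was 0.29. GIR2, whose product binds Gcn1, an activator of the eIF2 kinase, was 10.63, 10.05 and 8.94 on the gpm1-labelled arrays, against 8.64, 8.73 and 8.64 on those labelled WT (difference 1.21, SE 0.40, limma adjusted p = 0.199). SRO9, for an RNA-binding protein of translating ribosomes, differed by 0.99 and GIS2, for another RNA-binding protein, by 0.74 (limma adjusted p = 0.227 and 0.196). All 3 had their highest value on replicate 1, and SRO9 lay within the WT range on replicate 3. Some regulators stood the other way. GCN2, for the kinase that phosphorylates eIF2, was 6.65, 6.78 and 7.56 on the gpm1-labelled arrays, against 7.58, 7.63 and 7.68 on those labelled WT (difference -0.64, limma adjusted p = 0.210). GCN4, whose mRNA is translated under the control of eIF2 and eIF2B, differed by -0.14 (limma adjusted p = 0.329). GCN2 and GCN4 were chosen for mention after their values were seen.

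The 9 enzymes of hypusine and diphthamide synthesis, which modify eIF5A and eEF2, had 0 genes past the test in either direction with limma on all 6 arrays, 6 higher and 0 lower at an unadjusted p under 0.05, and 6 called higher without replicate 3, where 12.0% and 21.6% of all genes were higher. JJJ3, for a cochaperone of diphthamide synthesis, differed by 0.69, DPH5, for its methyltransferase, by 0.67, and DYS1, for deoxyhypusine synthase, by 0.55 (limma adjusted p = 0.217, 0.196 and 0.196). The list median was 0.46, although HYP2 and EFT2, whose products they modify, stood at 0.04 and 0.02. Among the other paralogues and partners, RLI1, for the ABC ATPase of ribosome recycling, differed by 0.71 and NEW1, for an ABC protein related to eEF3, by 0.67 (limma adjusted p = 0.166 and 0.196). That list of 11 did not shift as a whole, with a median difference of 0.02 and 6 genes above the WT mean. DED1 differed by -0.56 and DBP1 by -0.39 (limma adjusted p = 0.305 and 0.204). The DED1 arrays were not of 1 sign, at -1.15, -0.64 and 0.11 from the WT mean on labelled gpm1 replicates 1, 2 and 3. DED1 and DBP1 were chosen for mention after their values were seen.

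Set beside the other parts of the protein synthesis machinery, the translation factors had a median difference between those of ribosome assembly and of the ribosome itself. A list of 54 ribosome biogenesis genes had a median difference of 0.73, the 29 factors 0.44 and 128 cytosolic ribosomal protein genes 0.04. By array, the biogenesis median was 0.94, 1.06 and 0.20 on labelled gpm1 replicates 1, 2 and 3, and the ribosomal protein median was 0.03, -0.02 and 0.13. Replicate 3 was thus the array with the smallest shift for the factors and for biogenesis, and the one with the highest ribosomal protein median. On it, 124 of 128 ribosomal protein genes lay above the highest array labelled WT, against 59 on replicate 1 and 41 on replicate 2. Of all genes, 50.3%, 44.3% and 42.5% lay above it on replicates 1, 2 and 3. Without replicate 3, 5 of the 128 ribosomal protein genes were called higher and 19 lower, both smaller shares than the 21.6% and 19.5% of all genes. The difference between these lists was not tested.

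**Figure D5:**
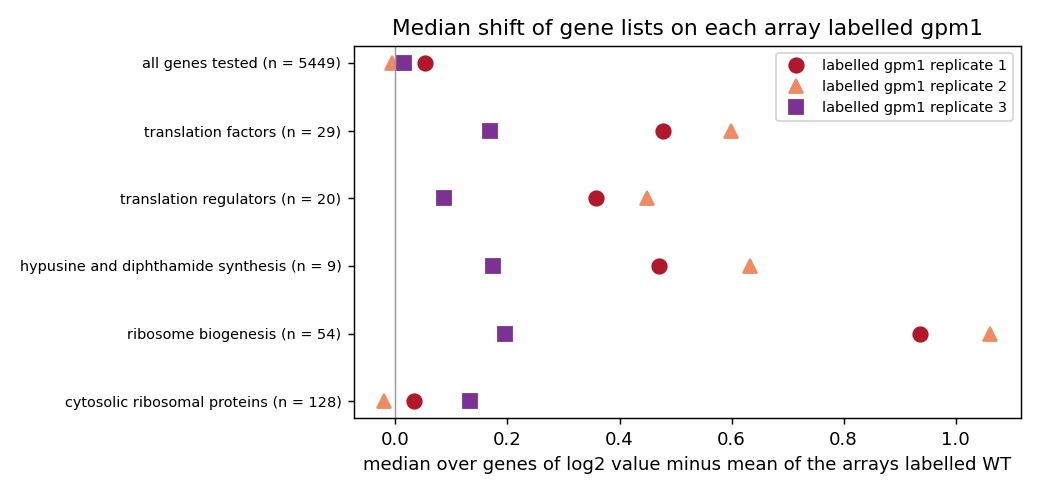
Median over the genes of each list of the log2 value minus the mean of the arrays labelled WT, 1 symbol for each array labelled gpm1, with the number of genes in brackets. Translation factors lie at 0.48, 0.60 and 0.17 on replicates 1, 2 and 3, ribosome biogenesis at 0.94, 1.06 and 0.20, and all genes at 0.05, -0.01 and 0.02.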

How the data were processed

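The deposited table holds 1 log2 value for each of 10928 probe sets on 6 arrays, which the authors summarised with PLIER, per the submitters' processing notes. Its version, any offset, array scaling and log base: not given in the sources used here. With values of 4.88 to 13.12, base 2 was assumed, and all folds rest on it. Probe sets were named through the platform annotation and the S. cerevisiae R64 gene table (5498 probe sets, 5449 genes, each by its probe set with the highest mean). Labelled gpm1 minus labelled WT was fitted on all genes with limma 3.58.1 (lmFit, eBayes) in R 4.3.3, two-sided, with Benjamini-Hochberg adjustment over 5449 genes and a threshold of 0.05. The test was tried on simulated data, in which both groups took their spread from the arrays labelled WT alone. That trial does not cover the wider spread of the gpm1-labelled arrays. Gene lengths, introns included, are those of R64. No sequences were used here, so planned motif and protein comparisons were not run. Every translation factor was open to naming. From each list of paralogues, regulators and enzymes, genes past the threshold and the 3 with the largest difference were named. Outside that rule, TEF2, EFT2, CAM1 and ANB1 were named as copies or paralogues of elongation factor genes. GCN2, GCN4, DED1 and DBP1 were also named outside it. Members and lists were chosen with earlier results of these data known. Alternatives changed the scaling, an offset of 16, the dimmest 20% of genes, the probe sets, the variance prior, array weights, a replicate block and each array in turn. Plots were drawn with matplotlib 3.10.9.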

Additional observations from a re-analysis of the deposited data

Results flagged for a closer look

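The poly-A control probe sets, which take no part in the comparison of genes, stood above the arrays labelled WT on 2 arrays labelled gpm1. Their mean log2 value over 12 probe sets was 7.1 on labelled gpm1 replicate 1 and 6.61 on replicate 2, with 6.15 the highest of the WT-labelled arrays. The hybridisation controls, added after labelling, had means of 9.13, 8.73 and 9.05 on the gpm1-labelled arrays and 8.86, 8.89 and 8.60 on those labelled WT. Groups of 3 arrays are too small for a test of single outlying arrays.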

How the results depend on the processing

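No translation factor gene was called by limma under quantile normalization, centring, the offset, the filter on dim genes, the mean of probe sets or the trend and robust prior, and the median of the 29 genes stayed between 0.42 and 0.51 over these settings and array weights. With array weights 17 of the 29 were called, all higher, among 1009 of all genes, and 16 of the 17 were among the 22 called without labelled gpm1 replicate 3. That estimate of weights stopped before it converged and gave the gpm1-labelled arrays weights of 0.142, 0.416 and 0.133, against 5.20, 6.83 and 3.58 for those labelled WT. With 1 array left out, the calls among the 29 genes ran from 0 to 22 and those among all genes from 11 to 2240, against 44 with all arrays; the lowest was without labelled WT replicate 1, and the counts were 19, 13 and 12 without labelled WT replicate 2, labelled WT replicate 3 and labelled gpm1 replicate 2. The median of the 29 genes then ran from 0.35 to 0.56. The 1 member whose direction turned was HYP2, between -0.0085 (without labelled gpm1 replicate 1) and 0.0686 with 1 array left out. Replicate numbers are shared by the groups, but same-numbered arrays did not deviate together (correlations 0.05, 0.02 and -0.13 over all genes), and labelled gpm1 replicate 2 correlated best with labelled WT replicate 3 (0.18). With the number as a replicate block, 0 translation factor genes and 31 of all genes were called.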
